A study of Mus musculus with 23 samples.

Results

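The 37 genes described here encode NRF2, its inhibitor KEAP1 and the enzymes and metal-binding proteins that keep oxidants in check in mouse hippocampus. They were taken as a named list of NRF2 pathway, glutathione, peroxiredoxin, superoxide dismutase and metallothionein genes, out of 52636 genes in the files. The list was named by pathway, but with earlier results of these data known. All 37 passed the filter on low counts, among 17788 genes tested. Whole hippocampi of mice on a mixed C57Bl6 and Balbc background were sequenced in 4 groups. These were wild type (WT) in normoxia (normal air, 6 libraries), WT in hypoxia (6), P301S in normoxia (5) and P301S in hypoxia (6). P301S stands for a tau transgene with that mutation, known from inherited dementia. Per the title of the series, hypoxia was chronic and intermittent, that is repeated short losses of oxygen such as occur in sleep apnoea. The sources used here do not give the transgenic line, its promoter, the age or sex of the mice, or the regimen of hypoxia. The question the design poses for these genes is whether either factor, or both together, moved the antioxidant genes of the hippocampus.

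NRF2, encoded by Nfe2l2, is a transcription factor that KEAP1 marks for destruction in unstressed cells. Oxidants and electrophiles modify cysteines of KEAP1, NRF2 then accumulates, binds antioxidant response elements and raises genes such as Hmox1, Nqo1, Slc7a11, Gclc, Gclm, Srxn1 and Txnrd1. Many other antioxidant enzymes of neurons and glia, among them peroxiredoxins, superoxide dismutases and GPX4, are made at a steady level with little need of NRF2. In the brain, inducible NRF2 activity is known mainly from astrocytes, and metallothioneins answer to zinc through another factor, MTF1.

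The promoter windows at hand show which of the genes searched carry, close to their start, the letters that NRF2 and MTF1 are known to bind. RefSeq windows (GRCm38.p6, 250 bases before to 50 after a gene's start) were at hand for 31 of the 37 genes, 40 windows in all. Hmox1, Gclc, Gsr, Sod3, Prdx6 and Gsta4 had no window and were not searched. Sequence outside the windows was not searched for any gene, so a gene without a match here may carry one elsewhere. The antioxidant response element core TGACNNNGC, searched on both strands, was in 9 of the 40 windows (22.5%), against 12.4% of all 32851 windows. The 9 genes were Nfe2l2, Gclm, Sod1, Prdx1, Srxn1, Txnrd1, Gstm5, Mgst1 and Mt2. Below are 3 of them whose counts were lower in P301S (Sod1, Prdx1 and Gstm5) and 3 that did not pass the test (Nfe2l2, Gclm and Txnrd1), printed 5′ to 3′ on the gene's strand with the match in capitals. Matches begin 56, 133, 42, 240, 134 and 92 bases before the start, in that order. The Prdx1 match also holds the AP-1 letters TGAGTCA.
Sod1 (chr16:90220676-90220744, plus strand): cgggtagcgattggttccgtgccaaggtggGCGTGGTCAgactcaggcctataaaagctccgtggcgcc
Prdx1 (chr4:116685436-116685504, plus strand): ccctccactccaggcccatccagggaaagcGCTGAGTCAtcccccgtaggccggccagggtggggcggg
Gstm5 (chr3:107895782-107895850, plus strand): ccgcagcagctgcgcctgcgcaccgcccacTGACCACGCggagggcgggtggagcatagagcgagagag
Nfe2l2 (chr2:75704865-75704913, minus strand): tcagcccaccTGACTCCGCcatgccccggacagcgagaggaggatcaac
Gclm (chr3:122245393-122245461, plus strand): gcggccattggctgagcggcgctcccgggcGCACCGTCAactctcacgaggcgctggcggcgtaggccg
Txnrd1 (chr10:82859084-82859152, plus strand): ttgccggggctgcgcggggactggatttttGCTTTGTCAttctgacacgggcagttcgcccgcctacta

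The metal response element core (TGCACNC or TGCGCNC, both strands) was in 10 of the 40 windows (25%) and in 25.7% of all windows. Mt1 and Mt2, neighbours on chromosome 8, are shown because they differ in number of matches. Mt1 holds 3 matches, 1 before the start at 23 bases and 2 after it, at 2 and 20 bases. Mt2 holds 4, at 223, 128 and 50 bases before the start and 4 bases after it. Capitals mark the matches.
Mt1 (chr8:94178839-94179118, plus strand): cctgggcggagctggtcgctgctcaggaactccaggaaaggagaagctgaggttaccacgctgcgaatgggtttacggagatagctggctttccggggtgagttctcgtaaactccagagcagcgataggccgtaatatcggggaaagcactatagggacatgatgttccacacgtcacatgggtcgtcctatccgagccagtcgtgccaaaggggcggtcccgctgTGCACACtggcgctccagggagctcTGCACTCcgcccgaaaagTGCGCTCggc
Mt2 (chr8:94172368-94172647, plus strand): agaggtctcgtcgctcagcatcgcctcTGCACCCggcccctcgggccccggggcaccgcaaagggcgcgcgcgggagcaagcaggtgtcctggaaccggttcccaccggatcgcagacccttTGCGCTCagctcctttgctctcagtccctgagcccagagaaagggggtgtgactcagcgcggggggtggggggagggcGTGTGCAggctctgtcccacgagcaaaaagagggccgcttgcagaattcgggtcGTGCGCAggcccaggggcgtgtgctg

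Libraries held between 19.1 and 25.8 M counts. Nothing in the labels ties each library to an animal of its own, and the p-values therefore reflect library-to-library spread, which may be technical. Hippocampal markers were present, and 14 of 14 were tested. Their summed level lay between 1950 and 2600 CPM (counts scaled to a common library size) in all groups. For P301S against WT, 1 of them was called lower in normoxia and 1 higher in hypoxia. For hypoxia in P301S, 13 of the 14 were positive and 1 was called higher. Markers of neocortex and subiculum (12 tested) had a median log2 difference of 0.13 for P301S in normoxia, with 1 called higher. In hypoxia it was -0.03, with none called. Choroid plexus, a tissue that adjoins the hippocampus, was present in unequal amounts. The level was summed over its 15 listed markers, 14 of them tested. The sum ran from 277 through a median of 4870 to 5550 CPM in WT normoxia and from 317 through 1250 to 4760 in WT hypoxia. It ran from 1150 through 1470 to 5320 in P301S normoxia and from 296 through 1800 to 3980 in P301S hypoxia. No group lacked these markers and none of the 14 genes was called in any comparison. WT titles carry a number that is not explained and that differs between normoxia and hypoxia, so whatever it stands for cannot be told apart from hypoxia in WT. In bulk tissue, fewer cells of a type and less RNA per cell cannot be told apart.

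Levels between genes were compared as CPM per kb of exon, averaged over the 23 libraries. The counts include introns, which adds to the value of long genes. Mt3, the metallothionein of neurons and glia also called growth inhibitory factor, stood highest at 125, then Gstm1, a cytosolic glutathione transferase, at 114. Mt1 (64.1), Gstm5 (61.4), Prdx5 (54.1) and Gpx4 (50.3) followed. The inducible targets spread widely, with Srxn1 at 28.2, Gclc at 20.5, Txnrd1 at 11.5, Slc7a11 at 4.76, Nqo1 at 3.40 and Hmox1 at 3.05, beside 26.2 for Sod1, 19.1 for Cat and 12.5 for Sod2. Gss, Gstp1, Gclm, Txnrd2 and Hmox2 were lowest, between 0.317 and 0.907. Reads that fall on more than 1 gene are dropped by the counter's default, and 97.7% of the exon bases of Gss, 90.1% of Gclm, 87.8% of Hmox2 and 73.5% of Mt2 lie under another gene, so those 4 levels are uncertain. The share of exon bases under another gene was 32.4% for Keap1 and 13.9% for Gstm5, and reads there were dropped as well. Gstp1 shares 52.8% of its 100-base stretches with Gstp2 and a pseudogene and received 291 counts over all libraries.

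Counts of some peroxidases, peroxiredoxins, glutathione transferases and other antioxidant genes were lower in P301S. Nfe2l2, Keap1, Hmox1, Nqo1, Slc7a11, Gclc, Gclm, Srxn1 and Txnrd1 did not pass the test. Neither did enzymes not named above as inducible, such as Gpx3, Sod2, Cat, Prdx3, Prdx4, Prdx6, Txn1 and Gstm1. Whether the genes that passed differ from those that did not was not tested. Called means a Benjamini-Hochberg adjusted p below 0.05 over all 17788 genes by edgeR's quasi-likelihood test, and fold changes are log2 values with standard errors (SE). In normoxia 6 of the 37 genes were called, all lower in P301S: Gpx4, Sod1, Prdx2, Prdx5, Txn2 and Gsta4. Of all genes tested, 5.93% were called in that comparison, 3.59% lower and 2.33% higher. In hypoxia 2 of the 37 were called, Gpx4 and Prdx5, both lower, with 1.93% of all genes called, 1.37% lower and 0.562% higher. With the genotype difference averaged over both conditions, 13 were called, again all lower, against 12.8% of all genes called, 7.61% lower and 5.21% higher. At an unadjusted p below 0.05 stood 17, 10 and 21 of the 37, against 22.4%, 18.1% and 27.7% of all genes. The 24 others passed in no comparison. The median log2 fold change of the 37 was -0.14 in normoxia, -0.12 in hypoxia and -0.14 averaged, and that of all genes was 0.0097, 0.00061 and 0.0079.

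**Figure D1:**
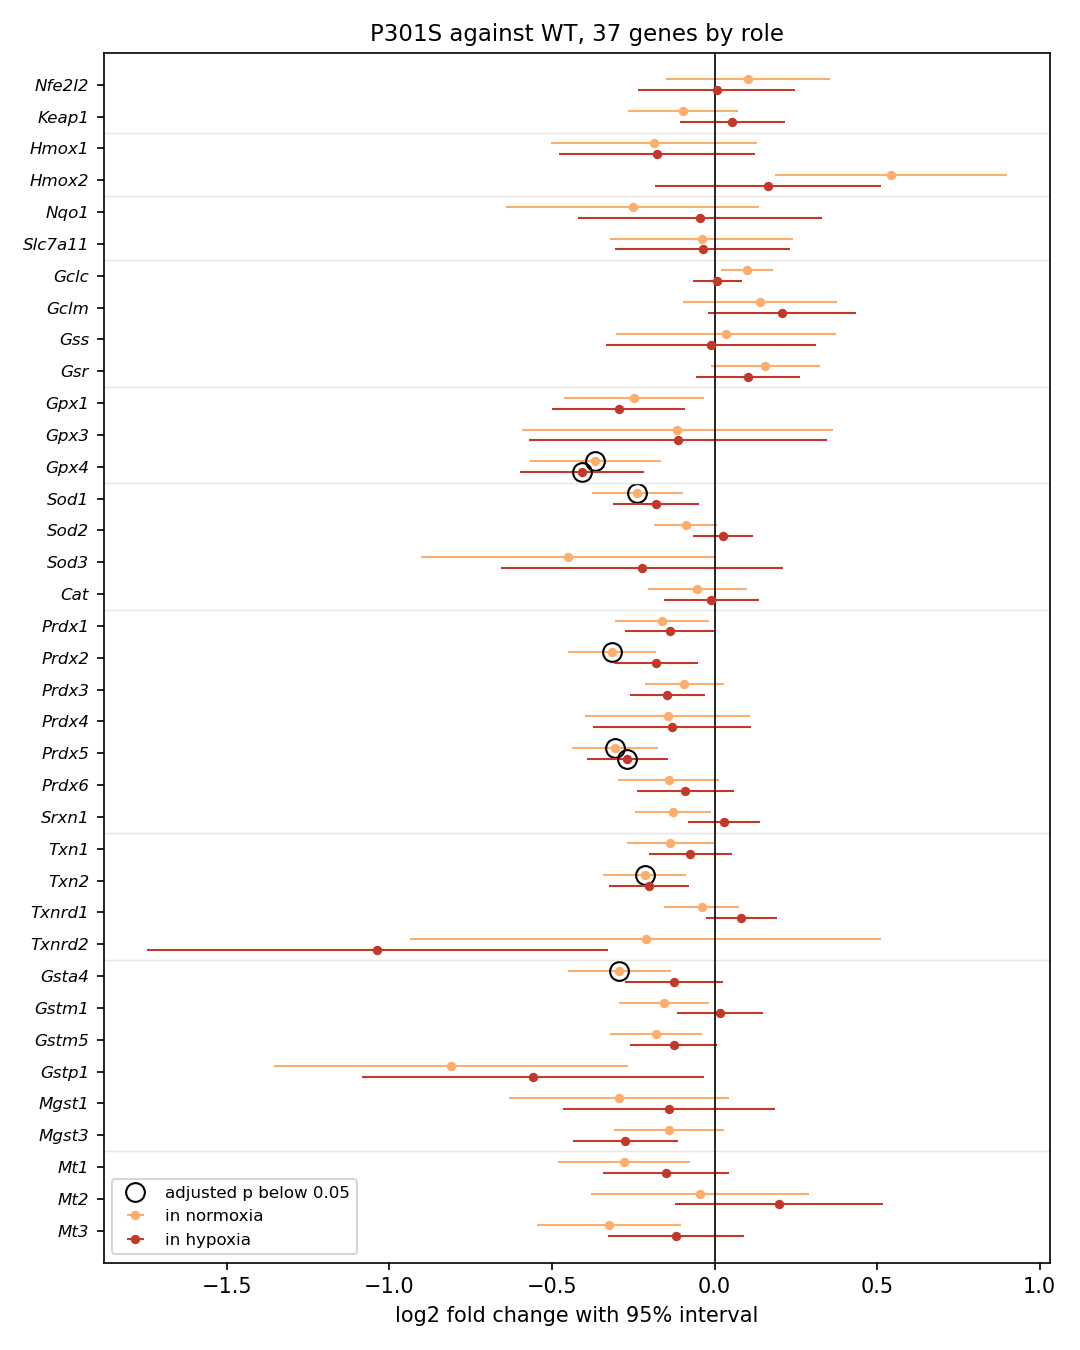
Log2 fold change of P301S against WT for each of the 37 genes (vertical axis, grouped by role), in normoxia (orange) and in hypoxia (red), with 95% intervals from the edgeR fit as bars. Circles mark adjusted p below 0.05: 6 genes in normoxia and 2 in hypoxia, all left of 0.

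The 2 regulators did not pass. Nfe2l2 (chr2:75675513-75704641) stood at 16.1, 19.3 and 23.5 CPM (lowest, median and highest of 6) in WT normoxia and at 19.5, 18.4, 22.1, 23.4 and 20.4 CPM in the 5 P301S normoxia libraries. In hypoxia it ran from 13.2 through 16.5 to 20.9 CPM in WT and from 14.3 through 17.3 to 21.5 CPM in P301S. The genotypes overlapped in both conditions, and the averaged genotype difference was 0.05 (SE 0.0845, 95% interval -0.12 to 0.23, edgeR adjusted p = 0.73). Keap1, the adaptor of the ligase that degrades NRF2, ran from 28.3 through 32.1 to 35.9 CPM in WT normoxia, with 36.8, 30.5, 29.6, 26.8 and 27.1 CPM in P301S normoxia. WT hypoxia (28.6, 31.5 and 35.0) and P301S hypoxia (28.8, 34.5 and 35.1) covered the same range. Its averaged difference was -0.02 (SE 0.0567, interval -0.14 to 0.10).

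The classic inducible targets were not called either. Hmox1, the heme oxygenase that NRF2 induces, stood at 4.40, 5.56 and 6.53 CPM in WT normoxia and at 6.11, 2.88, 5.62, 5.27 and 4.85 CPM in P301S normoxia. In hypoxia it ran from 4.57 through 5.65 to 6.93 CPM in WT and from 4.41 through 4.89 to 6.17 CPM in P301S. All 4 groups overlapped, and the averaged difference was -0.18 (SE 0.106, interval -0.40 to 0.04, edgeR adjusted p = 0.281). Nqo1, a quinone reductase, stood at 3.94, 6.17 and 7.75 CPM in WT normoxia against 3.62, 5.07, 6.12, 6.56 and 4.45 CPM in P301S normoxia. In hypoxia its lowest, median and highest values were 3.61, 4.57 and 6.65 CPM in WT and 4.16, 4.46 and 6.03 CPM in P301S. Its interval ran from -0.42 to 0.12 around an averaged difference of -0.15 (SE 0.131). Slc7a11, the cystine importer that feeds glutathione synthesis, stood at 57.8, 73.0 and 77.5 CPM in WT normoxia, and its 5 P301S normoxia libraries at 62.2, 64.9, 67.6, 72.6 and 71.8 CPM lay inside that range. In hypoxia it ran from 41.1 through 67.6 to 81.1 CPM in WT and from 50.9 through 63.7 to 81.7 CPM in P301S, and the averaged difference was -0.04 (SE 0.0940, interval -0.23 to 0.16).

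**Figure D2:**
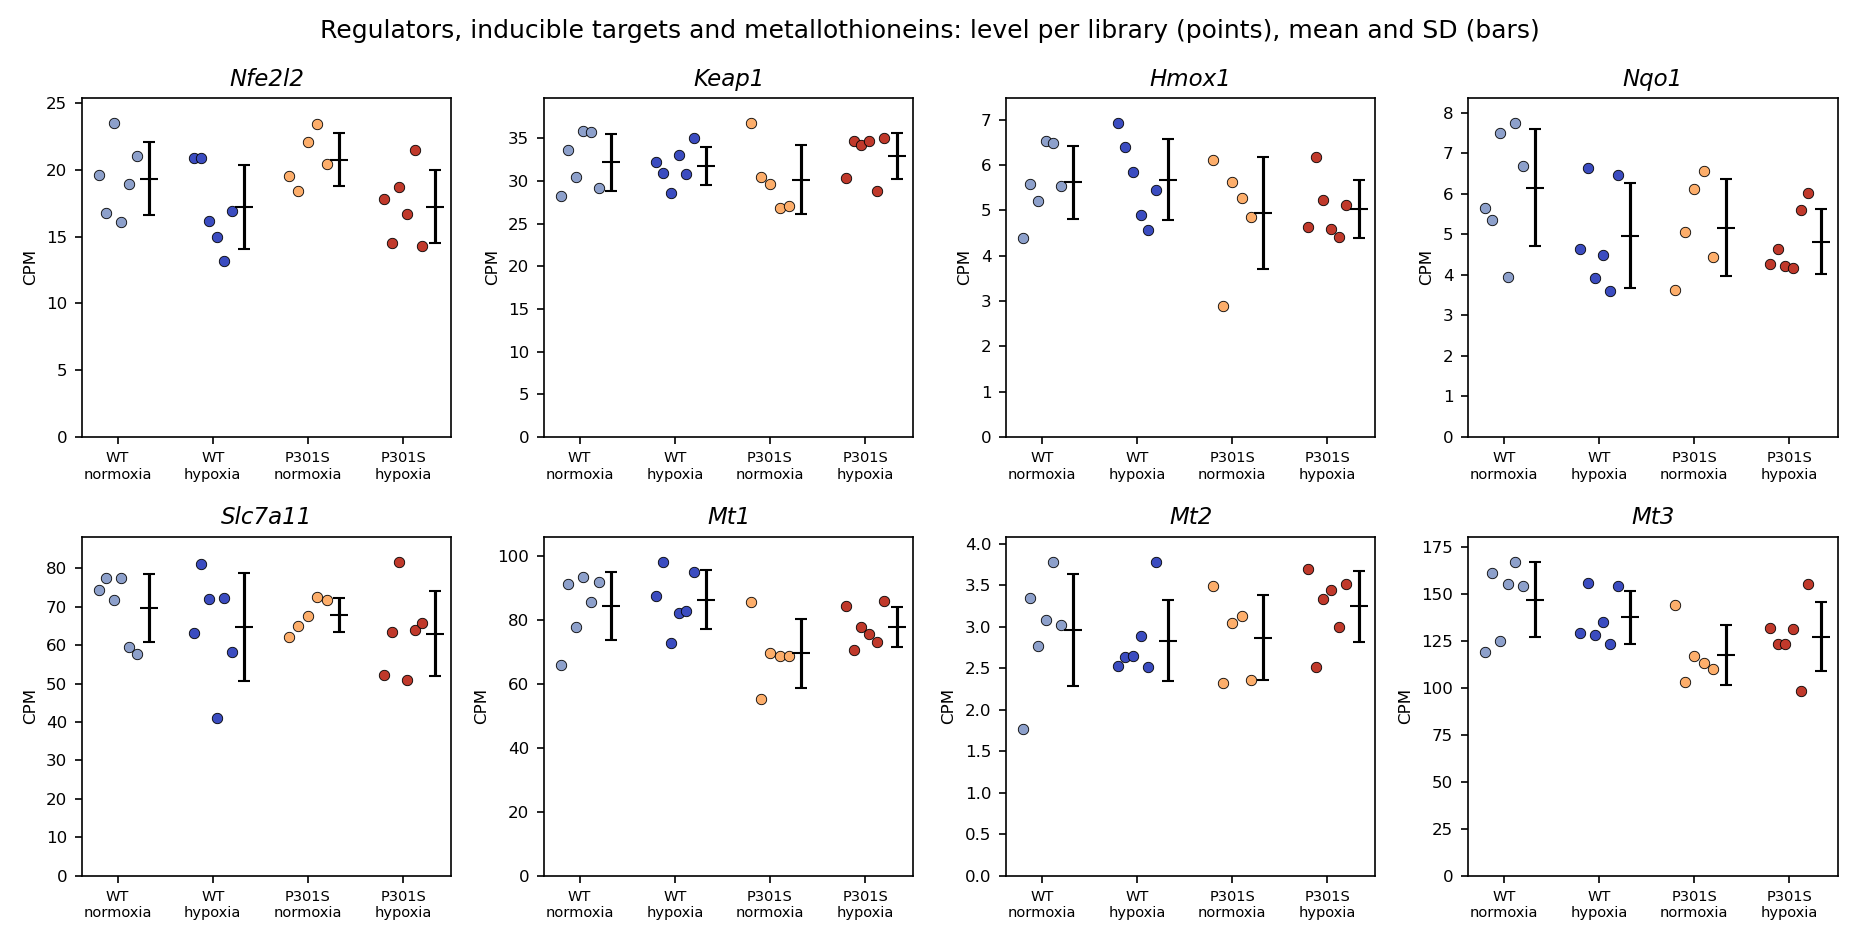
Level in CPM (vertical axis from 0) of Nfe2l2, Keap1, Hmox1, Nqo1, Slc7a11, Mt1, Mt2 and Mt3 in each library of the 4 groups (points), with the mean and SD beside them. The groups overlap for every gene shown, and no library exceeds 7.75 CPM for Nqo1, Hmox1 or Mt2.

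Hmox2, the constitutive heme oxygenase, was the member with the largest difference toward P301S. It stood at 1.10, 1.93 and 2.19 CPM in WT normoxia and at 2.71, 2.88, 2.54, 2.75 and 2.13 CPM in P301S normoxia, so only the lowest P301S library overlapped WT. The difference of 0.54 (SE 0.173) had an edgeR adjusted p of 0.0617 and was not called, whereas DESeq2 called it (adjusted p = 0.0368), as did edgeR with a choroid plexus score as covariate (0.0289). In hypoxia the difference was 0.17 (SE 0.168), and the averaged difference of 0.35 was not called by edgeR. The counts of Hmox2 are among the uncertain ones noted above, with 87.8% of its exon bases under another gene. It also shares 43.0% of its 100-base stretches with Cdip1.

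The 4 genes of glutathione synthesis and recycling all had positive averaged differences, none called. Gclc, the catalytic subunit of the rate-limiting ligase, was higher in every P301S normoxia library (77.5 to 81.0 CPM) than in any WT normoxia library (71.5 to 76.7 CPM), as were 1.62% of all genes. That difference was small (0.10, SE 0.0386, edgeR adjusted p = 0.124), and in hypoxia it was 0.01 (SE 0.0369). Gsr, which regenerates reduced glutathione, differed by 0.13 averaged (SE 0.0561, adjusted p = 0.131 by edgeR). Gclm, the modifier subunit, differed by 0.17 (SE 0.0797) and Gss, which adds glycine, by 0.01 (SE 0.114), both on the uncertain counts noted above.

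Glutathione peroxidases use glutathione to reduce peroxides, and GPX4 is the member that reduces lipid hydroperoxides in membranes and so guards cells from ferroptosis. Gpx4 (chr10:80047166-80056439) had the largest called difference among genes above 1 CPM. In normoxia the WT libraries ran from 84.8 through a median of 95.3 to 108 CPM, and the P301S libraries stood at 88.1, 66.5, 74.5, 78.2 and 65.2 CPM. In hypoxia WT ran from 85.2 through 99.8 to 113 CPM and P301S from 65.5 through 72.3 to 96.9 CPM. Only 1 P301S library in each condition reached the WT range, 9 of 11 P301S libraries lay below every WT library, and all 11 lay below the WT median. Gpx4 fell by 0.37 on the log2 scale in normoxia (SE 0.0974, edgeR adjusted p = 0.0289) and by 0.41 in hypoxia (SE 0.0925, adjusted p = 0.0242), which averaged to a level 23.5% below WT. It shares 48.4% of its 100-base stretches with Gpx4-ps2 and AC122253.3, so reads may have been lost to or gained from those copies.

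Gpx1 (chr9:108338903-108340343), the cytosolic glutathione peroxidase, ran from 23.1 through 27.6 to 33.2 CPM over the 12 WT libraries and from 19.8 through 22.2 to 28.7 CPM over the 11 P301S libraries. The ranges overlapped, with 6 P301S libraries below every WT library. It fell by 0.27 averaged (SE 0.0718, edgeR adjusted p = 0.0147) and passed in neither condition alone (adjusted p = 0.154 and 0.115). Gpx3, the secreted form, differed by -0.11 (SE 0.160) and did not pass.

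Superoxide dismutases turn superoxide into hydrogen peroxide, which catalase and peroxidases remove. Sod1 (chr16:90220742-90226322), the copper and zinc enzyme of the cytosol, ran from 99.6 through 112 to 130.3 CPM in WT normoxia and stood at 104, 87.5, 88.6, 95.7 and 98.0 CPM in P301S normoxia. In hypoxia WT ran from 99.3 through 110.0 to 120.5 CPM and P301S from 89.1 through 97.4 to 106 CPM. Of the P301S libraries, 7 of 11 lay below every WT library. Sod1 fell by 0.24 in normoxia (SE 0.0674, edgeR adjusted p = 0.039) and by 0.21 averaged (SE 0.0465, adjusted p = 0.00509), and in hypoxia the difference was -0.18 (SE 0.0641, adjusted p = 0.138). Sod2, the mitochondrial manganese enzyme, differed by -0.03 averaged, with a narrow interval (-0.10 to 0.04), and Cat, catalase, by -0.03 (-0.14 to 0.07). Sod3, the extracellular enzyme, differed by -0.34 (SE 0.151, adjusted p = 0.147) and varied widely, from 6.32 to 18.4 CPM over all libraries. These last 3 did not pass.

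Peroxiredoxins reduce hydrogen peroxide with thiols and are among the most abundant antioxidant enzymes of neurons. All 6 had negative averaged genotype differences and 3 of them, Prdx1, Prdx2 and Prdx5, were called. Prdx2 (chr8:84969587-84974834), the neuronal cytosolic form, ran from 106 through 122 to 131 CPM in WT normoxia and stood at 105, 86.1, 97.7, 94.7 and 97.1 CPM in P301S normoxia, with no overlap. In hypoxia WT (109, 121 and 130.5 CPM) and P301S (96.2, 105 and 119 CPM) overlapped. Prdx2 fell by 0.31 in normoxia (SE 0.0656, edgeR adjusted p = 0.00789), and the difference in hypoxia was -0.18 (SE 0.0623, adjusted p = 0.125).

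Prdx5 (chr19:6906697-6910106), which works in mitochondria and peroxisomes, showed the same order in both conditions. WT normoxia ran from 112 through 127 to 139.9 CPM and P301S normoxia stood at 111, 92.2, 106, 105 and 97.1 CPM, with no overlap. WT hypoxia ran from 119 through 127 to 136 CPM and P301S hypoxia from 97.2 through 102 to 122 CPM, where only the highest P301S library reached the WT range. Prdx5 fell by 0.31 in normoxia (SE 0.0640, edgeR adjusted p = 0.00789) and by 0.27 in hypoxia (SE 0.0609, adjusted p = 0.0242), an averaged level 18.0% below WT. Of all genes, 1.72% were lower without overlap in normoxia and 1.25% in hypoxia, where 0.68% were higher without overlap. Of their exon bases, 17.3% of Prdx2 and 19.1% of Prdx5 lie under other genes, and reads there were dropped.

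Prdx1 (chr4:116685544-116700822), the cytosolic form that carries the NRF2 letters shown above, ran from 73.5 through 89.8 to 105 CPM in WT and from 73.3 through 81.7 to 86.1 CPM in P301S. Every P301S library lay below the WT median, but only 1 below every WT library. It fell by 0.15 averaged (SE 0.0486, edgeR adjusted p = 0.0445), and the call was lost in 13 of 23 fits that left out a library. The mitochondrial Prdx3 differed by -0.12 (SE 0.0406, adjusted p = 0.0553), Prdx4 of the endoplasmic reticulum by -0.14 (SE 0.0850) and Prdx6, which also has phospholipase activity, by -0.12 (SE 0.0522). Srxn1, the NRF2 target that repairs overoxidized peroxiredoxins, differed by -0.05 (SE 0.0389).

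**Figure D3:**
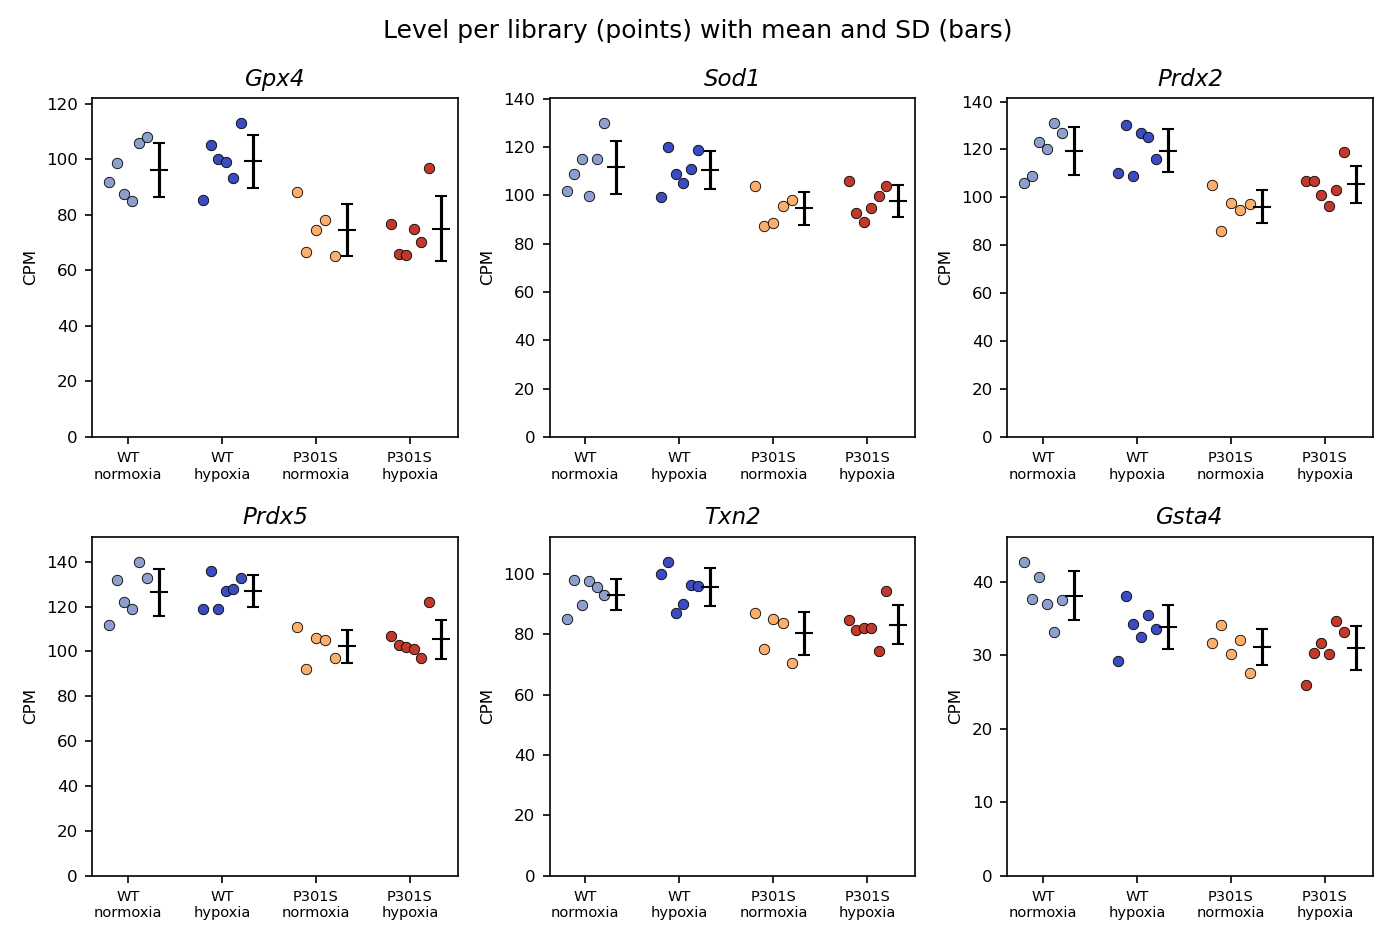
Level in CPM (vertical axis from 0) of the 6 genes called in normoxia, in each library of the 4 groups (points), with mean and SD beside them. In normoxia the P301S points of Prdx2 and Prdx5 lie below all WT points, and for Gpx4 1 P301S point in each condition reaches the WT range.

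Thioredoxins reduce peroxiredoxins and are themselves reduced by thioredoxin reductases. Txn2 (chr15:77915047-77929006), the mitochondrial thioredoxin, ran from 85.1 through 94.4 to 98.0 CPM in WT normoxia and stood at 87.2, 75.0, 85.0, 83.8 and 70.4 CPM in P301S normoxia. In hypoxia WT ran from 87.0 through 96.1 to 104 CPM and P301S from 74.3 through 82.2 to 94.2 CPM. Of the P301S libraries, 9 of 11 lay below every WT library. Txn2 fell by 0.21 in normoxia (SE 0.0621, edgeR adjusted p = 0.042) and by 0.21 averaged (SE 0.0429, adjusted p = 0.00284), and in hypoxia the difference was -0.20 (SE 0.0591, adjusted p = 0.0756). The cytosolic Txn1 differed by -0.11 (SE 0.0450, adjusted p = 0.126). Txnrd1, the cytosolic reductase and an NRF2 target, differed by 0.02 with a narrow interval (-0.06 to 0.10). Its mitochondrial counterpart Txnrd2 differed by -0.62 (SE 0.245, adjusted p = 0.0957) at 1.33 to 7.55 CPM.

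Glutathione transferases couple glutathione to electrophiles, and GSTA4 prefers the lipid peroxidation product 4-hydroxynonenal. Gsta4 (chr9:78182774-78209349) ran from 33.2 through 37.5 to 42.7 CPM in WT normoxia and stood at 31.7, 34.1, 30.1, 32.1 and 27.6 CPM in P301S normoxia, where 1 library reached the WT range. In hypoxia WT stood at 29.2, 33.8 and 38.1 CPM and overlapped most of P301S hypoxia (26.0, 31.0 and 34.7 CPM). Gsta4 fell by 0.29 in normoxia (SE 0.0763, edgeR adjusted p = 0.0261) and by 0.21 averaged (SE 0.0527, adjusted p = 0.0112), and the difference in hypoxia was -0.13 (SE 0.0728, adjusted p = 0.378).

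The transferases called in the average alone were Mgst3, Gstm5 and Gstp1. Mgst3 (chr1:167371966-167393841), a microsomal transferase, ran from 32.4 through 39.1 to 49.2 CPM in WT and from 29.3 through 34.2 to 39.1 CPM in P301S, and fell by 0.21 (SE 0.0564, edgeR adjusted p = 0.0174). Gstm5 (chr3:107895821-107898686), a transferase of brain and testis, ran from 71.7 through 83.6 to 90.6 CPM in WT and from 62.5 through 75.4 to 83.3 CPM in P301S, and fell by 0.15 (SE 0.0471, adjusted p = 0.0345). Both overlapped between genotypes, and the Gstm5 call was lost in 7 of 23 fits that left out a library. Gstp1 (chr19:4035407-4037921) had the largest fall of the 13, 0.68 (SE 0.183, adjusted p = 0.0162), but at 0.412 to 1.02 CPM in WT and 0.158 to 0.656 CPM in P301S it rests on few counts, with as few as 4 in a library. Gstm1 (-0.07, SE 0.0463) and Mgst1 (-0.22, SE 0.114) did not pass.

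Metallothioneins bind zinc and copper through cysteines and also scavenge oxidants. Mt1 (chr8:94179082-94180327) ran from 65.9 through 88.4 to 93.4 CPM in WT normoxia and stood at 85.5, 55.1, 69.6, 68.8 and 68.5 CPM in P301S normoxia. WT hypoxia (72.6, 85.0 and 98.1 CPM) and P301S hypoxia (70.4, 76.5 and 85.9 CPM) overlapped for most of their range. Mt1 fell by 0.21 averaged (SE 0.0679, edgeR adjusted p = 0.0399) and passed in neither condition alone. Mt3 (chr8:94152607-94154146) ran from 119 through 154 to 167 CPM in WT normoxia against 144, 103, 117, 113 and 110.0 CPM in P301S normoxia. In hypoxia it ran from 123 through 132 to 156 CPM in WT and from 98.3 through 127 to 155 CPM in P301S. It fell by 0.22 averaged (SE 0.0734, adjusted p = 0.0486). The calls of Mt1 and of Mt3 were each lost in 15 of 23 fits that left out a library.

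Mt2 was not called, and whether it differs from its neighbours Mt1 and Mt3 was not tested. It ran from 1.77 through 3.05 to 3.78 CPM in WT normoxia and stood at 3.49, 2.32, 3.04, 3.13 and 2.36 CPM in P301S normoxia. In hypoxia WT ran from 2.51 through 2.63 to 3.78 CPM and P301S from 2.51 through 3.39 to 3.69 CPM. The averaged difference was 0.08 (SE 0.112, interval -0.16 to 0.31). Its low level beside Mt1 cannot be read as low expression, since the gene Gm45774 lies over most of its exon bases and reads shared by both were dropped.

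The 2 genotype comparisons share no library, and they can be set side by side. Of the 37 genes, 30 (81.1%) had the same sign in both, 25 of them (67.6%) lower in P301S in both conditions, against 63.1% and 30.4% of all tested genes. The 7 genes that changed sign were not called in either. Within P301S, 1 library per condition stood nearest WT for several of the called genes, P301S normoxia replicate 1 and P301S hypoxia replicate 6. Without the first, 12 of the 37 genes were called in normoxia in place of 6, and without the second 5 were called in hypoxia in place of 2. The counts fell to 2 in normoxia without P301S normoxia replicate 3 or 5, and to 0 in hypoxia without any of WT hypoxia replicates 2 and 6 or P301S hypoxia replicates 2, 3, 4 and 5. The share of all genes called in these fits is not given, so the changes cannot be read as particular to these genes. Prdx2 and Prdx5 kept their calls in normoxia in all 23 such fits.

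Short genes were lower in P301S across the whole data set, and most of these antioxidant genes are short. Genes were sorted by gene-body length into 10 equal bins. The 5 shorter bins held 26 of the 37, of which 12 were called in the averaged comparison, with a median of -0.17 against -0.06 for all genes there, where 13.2% of genes were called lower. The 5 longer bins held 11, of which 1 (Gsta4) was called, with a median of 0.02 against 0.05 for all genes there, where 2.02% were called lower. After the trend with length and GC content had been removed from each library, 8 of the 13 calls remained: Gpx4 (-0.31, adjusted p = 0.00117 by edgeR), Sod1 (-0.15), Prdx1 (-0.17), Prdx2 (-0.17), Prdx5 (-0.16, adjusted p = 0.000519), Txn2 (-0.16), Gsta4 (-0.22) and Mgst3 (-0.20). The calls of Gpx1 (-0.09), Gstm5 (-0.05), Gstp1 (-0.55), Mt1 (-0.04) and Mt3 (-0.05) were lost. Of all genes, 5.77% were called after that removal. In normoxia Prdx2, Prdx5 and Gsta4 remained, and in hypoxia Gpx4 and Prdx5. The part of gene length in the lower counts was not tested beyond that fit.

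**Figure D4:**
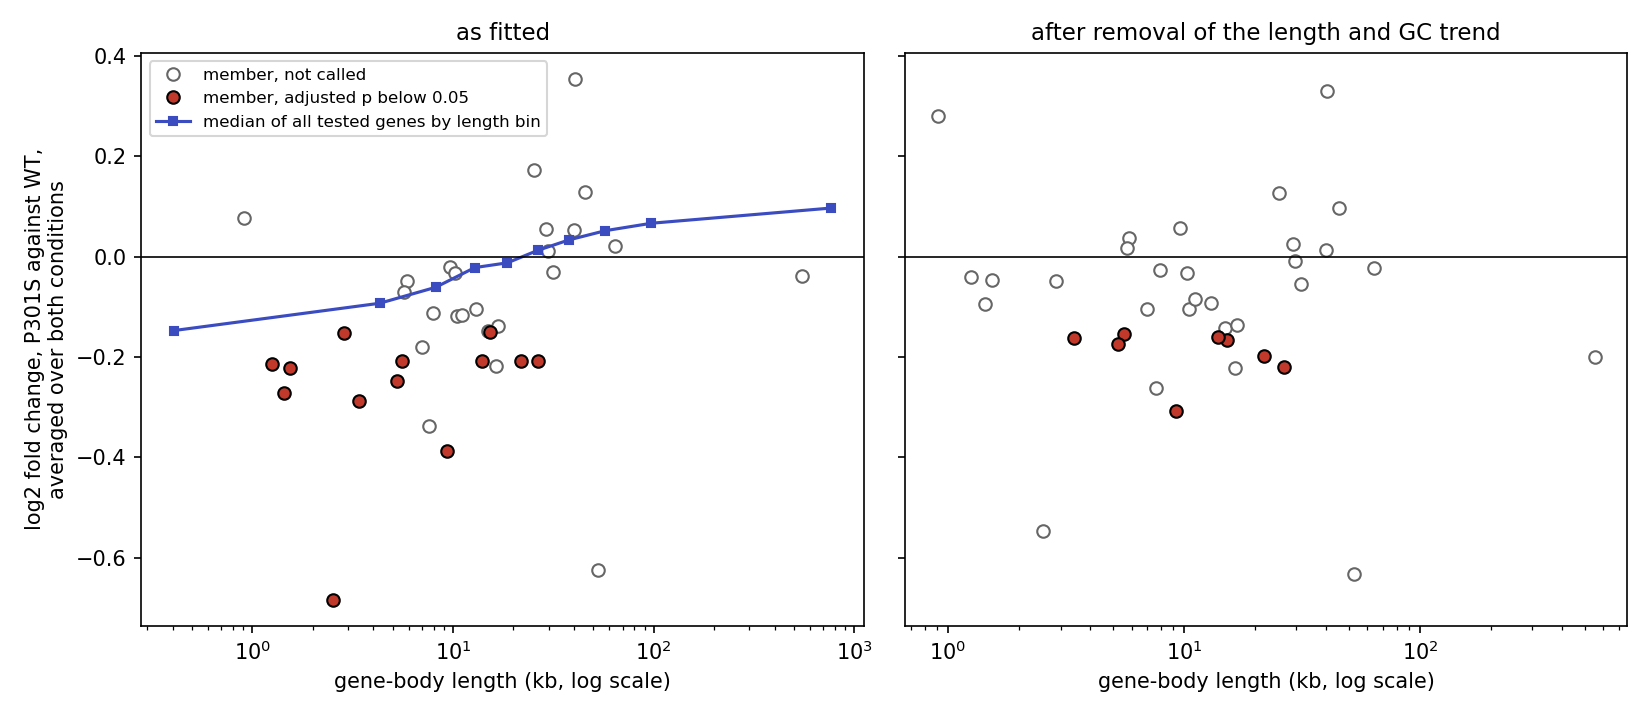
Averaged P301S against WT log2 fold change (vertical axis) of the 37 genes against gene-body length in kb (log axis), as fitted (left) and with the trend of length and GC content taken out (right), filled where adjusted p is below 0.05. The blue line on the left joins the medians of all tested genes in 10 length bins, each drawn at the geometric mean of its shortest and longest gene, and rises from short to long genes, with 12 of its 13 filled points in the 5 shorter bins.

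Markers of the cell types that could carry these genes were set beside the genotype difference. Astrocyte markers, of which 11 of 12 were tested, had a median log2 difference of -0.02 in normoxia and -0.03 in hypoxia, none called in either. The 12 listed summed to 3860 to 4490 CPM in WT normoxia and 4090 to 4910 CPM in P301S normoxia. Neuronal markers had medians of 0.03 and 0.02, and microglial markers -0.07 and -0.11, none of the 11 tested genes of either list called. Choroid plexus markers had medians of -0.49 and -0.19, and markers of the ependyma, which lines the ventricles, -0.40 and -0.29. The 4 tested blood markers had medians of -0.05 in normoxia and -0.78 in hypoxia, where all 4 were negative and 3 had an unadjusted p below 0.05, and -0.42 averaged. Mural and meningeal markers (12 tested) had medians of 0.04 and -0.27, endothelial markers (12) -0.06 and -0.03 and oligodendrocyte markers (12) 0.06 and -0.0047. None of these genes was called in either condition. In the averaged genotype comparison, 1 astrocyte marker was called higher and 1 endothelial marker lower, and none of the other lists named here had a call. With a choroid plexus score as covariate, the same 6 genes were called in normoxia together with Hmox2, the same 2 in hypoxia, and 12 of the 13 in the average, where Mt3 dropped out (-0.22, adjusted p = 0.0535 by edgeR). In that averaged comparison 1 further member was called higher, and DESeq2 also called 1 higher there. The 6 libraries lowest in that score were WT normoxia replicate 4, WT hypoxia replicates 1, 4 and 5 and P301S hypoxia replicates 1 and 4. Without them the hypoxia groups in particular were smaller. In that edgeR fit Gpx4 stood at -0.40 in normoxia (adjusted p = 0.0523) and -0.51 in hypoxia (0.152), and Prdx5 at -0.32 (0.0314) and -0.29 (0.193). The part of other cell types in the genotype difference was not tested beyond these fits.

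The regulators, the inducible targets and the constitutive enzymes alike did not pass the test for hypoxia. None of the 37 was called by edgeR for hypoxia against normoxia in WT, where 0.0787% of all genes were called (0.0337% higher and 0.045% lower), in P301S (0.304%, with 0.169% higher and 0.135% lower) or averaged over both genotypes (1.3%, with 0.658% higher and 0.647% lower). Without adjustment, 5, 3 and 5 of the 37 had p below 0.05, against 11.6%, 13.4% and 15.7% of all genes. The conditions overlapped for each of the 37 genes in either genotype, whereas of all genes 0.298% were higher and 0.394% lower without overlap in WT, and 1.01% and 1.12% in P301S. DESeq2 called 1 of the 37 in P301S, Srxn1, and 0 in WT and in the average. The median log2 fold changes were -0.01, 0.03 and 0.02. For the averaged comparison the 95% interval of 29 of the 37 genes lay inside a change of 25% either way, and the 8 others were Nfe2l2, Hmox2, Nqo1, Gpx3, Sod3, Txnrd2, Gstp1 and Mgst1.

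Srxn1, sulfiredoxin, came nearest to a call. It stood at 80.0, 72.9, 74.7, 63.8 and 72.4 CPM in P301S normoxia and ran from 79.3 through 82.1 to 90.6 CPM in P301S hypoxia, with a slight overlap. In WT it ran from 74.9 through 79.0 to 84.1 CPM in normoxia and from 73.9 through 83.0 to 88.8 CPM in hypoxia. The difference in P301S was 0.20 (SE 0.0565), with an adjusted p of 0.125 by edgeR and 0.0391 by DESeq2. In WT it was 0.04 (SE 0.0537).

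Nfe2l2 itself was lower in hypoxia in the fit, by values that did not pass: -0.17 (SE 0.117) in WT, -0.27 (SE 0.122) in P301S and -0.22 averaged (SE 0.0844, edgeR adjusted p = 0.206). Among its targets the averaged differences were 0.02 for Gclc (SE 0.0267), -0.05 for Txnrd1 (SE 0.0382), -0.11 for Slc7a11 (SE 0.0939), 0.02 for Hmox1 (SE 0.106) and -0.20 for Nqo1 (SE 0.130). For Srxn1 the averaged difference was 0.12 and for Gclm 0.01, neither called. Mgst3 differed by 0.15 (SE 0.0564, adjusted p = 0.192), Prdx3 by 0.09 (SE 0.0406) and the microsomal transferase Mgst1 by -0.26 (SE 0.114, adjusted p = 0.269). The metallothioneins Mt1 (0.10, SE 0.0678), Mt2 (0.06, SE 0.112) and Mt3 (0.01, SE 0.0733) did not pass. Choroid plexus markers had a median of -0.83 for averaged hypoxia, with all 14 genes negative, ependymal markers -0.46 and oligodendrocyte markers -0.15, with all 12 negative. Endothelial markers had a median of 0.13, with 7 of 12 at an unadjusted p below 0.05 and 1 called higher. Astrocyte markers had a median of 0.03, with 6 of 11 at an unadjusted p below 0.05 and 1 called higher. Hippocampal markers had a median of 0.10, with 1 of 14 called higher. Blood markers had a median of -0.33, with -0.72 in P301S, where 3 of 4 had an unadjusted p below 0.05. With the choroid plexus score as covariate, and without the 6 libraries lowest in it, 0 of the 37 genes were called for hypoxia in WT, in P301S or averaged. The part of the other cell types was not tested.

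**Figure D5:**
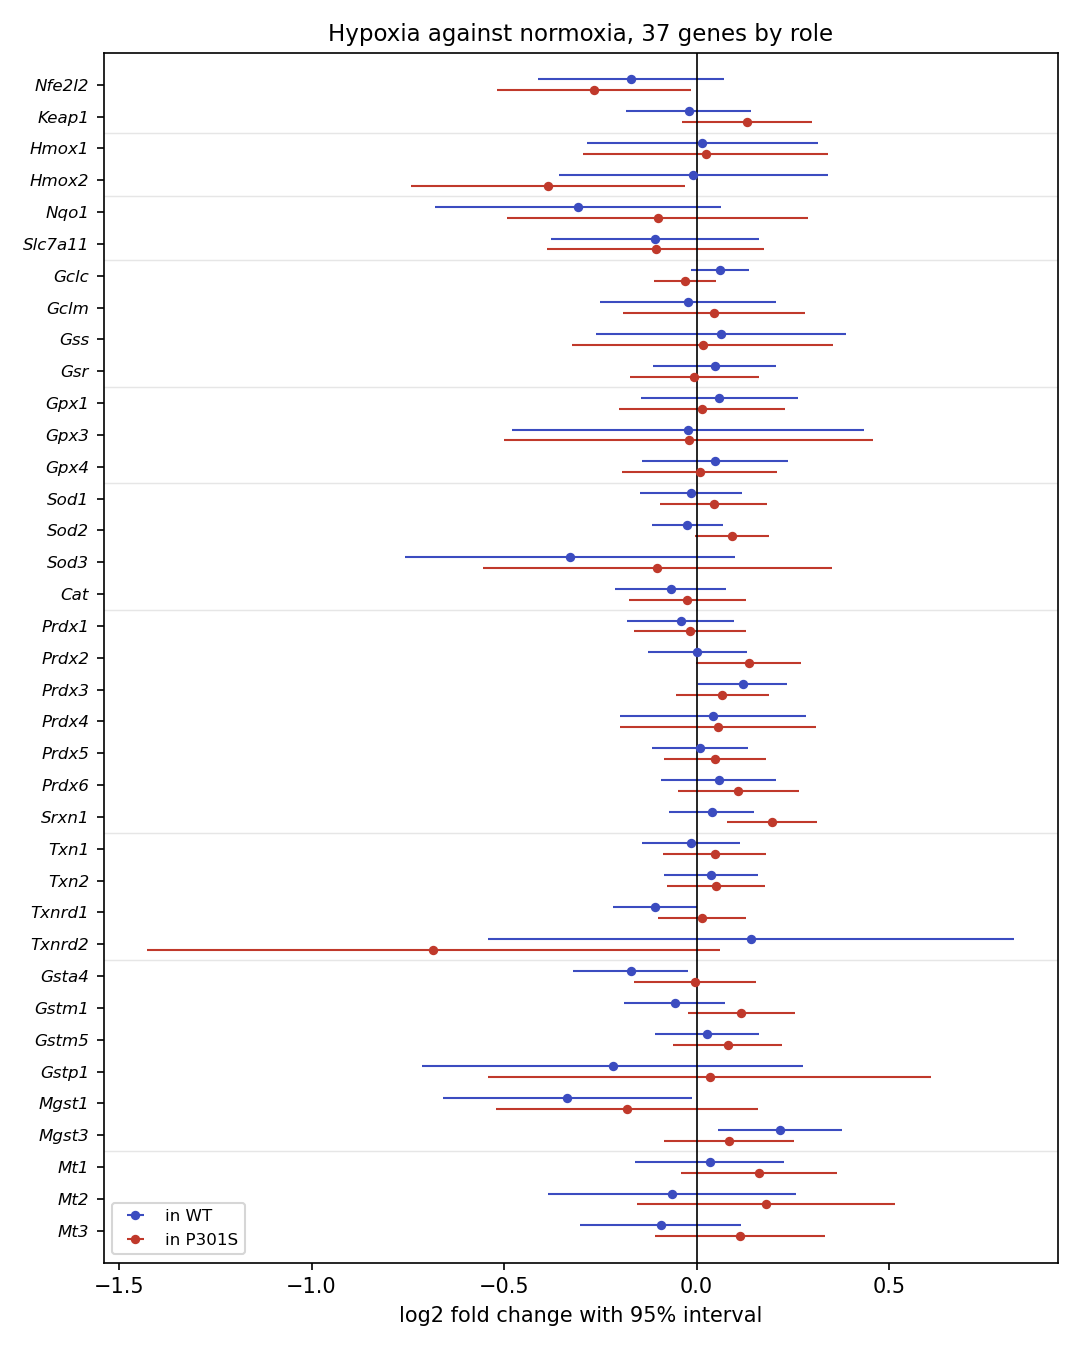
Log2 fold change of hypoxia against normoxia for each of the 37 genes (vertical axis, grouped by role), in WT (blue) and in P301S (red), with 95% intervals from the edgeR fit as bars. No gene passed the test, and most points lie near 0, with wide intervals for low genes such as Txnrd2 and Gstp1.

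The difference between the hypoxia effects of the genotypes, the interaction, was called for none of the 37 genes and for 0% of all genes by edgeR, with 0 of the 37 and 9.28% of all genes at an unadjusted p below 0.05. DESeq2 called 0 of the 37. Most intervals were wide: 16 of the 37 lay inside a change of 25% either way, so a moderate difference between genotypes was not detectable for the others at this number of libraries. For Prdx2 the interaction was 0.13 (SE 0.0904), for Gpx4 -0.04 (SE 0.134) and for Nfe2l2 -0.10 (SE 0.169).

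Other genes of the redox system were read from a list of 135, of which 116 were tested. Their values come from the fit without removal of the length and GC trend. Whether their calls remain after that removal was not tested. In normoxia 8 were called lower and 2 higher in P301S, against 3.59% and 2.33% of all genes. In hypoxia 2 were lower and 0 higher (1.37% and 0.562% of all genes), and in the average 20 were lower and 4 higher (7.61% and 5.21%). The NRF2 target list other than the 37 had 6 of 18 tested genes called lower in the average and none higher. The light ferritin chain Ftl1, part of the iron store, fell by 0.32 (SE 0.0509, edgeR adjusted p = 0.000437), and the heavy chain Fth1, named here after its values were seen, by 0.18 (SE 0.0498). Tkt and Taldo1, enzymes of the pentose phosphate pathway that supplies NADPH, fell by 0.26 (SE 0.0478) and 0.22 (SE 0.0433), and the carbonyl reductase Cbr1 by 0.20 (SE 0.0407). Among 14 tested genes that control NRF2, Sqstm1, whose protein p62 sequesters KEAP1, fell by 0.18 (SE 0.0363), while the coactivator Crebbp (0.16, SE 0.0317), Gsk3b (0.13, SE 0.0327) and the repressor Bach2 (0.24, SE 0.0618) rose.

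The selenoproteins Selenow and Selenom fell by 0.32 (SE 0.0567) and 0.33 (SE 0.0698) in the average, 2 of 5 called lower among 14 tested. In the thioredoxin-fold and thiol list 4 of 22 tested genes were lower in the average, with the lowest p for Park7, a redox-sensing chaperone also called DJ-1, at -0.20 (SE 0.0411). Among 22 further glutathione genes 4 were lower, with the lowest p for Esd, S-formylglutathione hydrolase, at -0.18 (SE 0.0424). No gene of metal handling, 11 tested, was called for genotype. Among 15 tested sources of oxidants Nox1, a catalytic NADPH oxidase, was higher in the average, by 0.60 (SE 0.125).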

How the data were processed

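RNA of whole hippocampus was sequenced in 23 libraries with a stranded polyA kit. The authors deposited raw counts per gene, made with featureCounts 1.6.2 on Ensembl release 90 (GRCm38) over gene bodies with their introns, ignoring strand, from alignments whose names mark duplicates as removed, per the file headers. The submitters' processing notes name HISAT2 and DESeq2 1.6.3. Symbols, exon lengths and GC content came from GENCODE, and 52403 of 52636 genes had a symbol.

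Counts were tested with edgeR 4.0.16 (R 4.3.3, limma 3.58.1): filterByExpr with a minimum count of 10, TMM scaling (0.961 to 1.03), a robust quasi-likelihood fit of 4 group means on all 23 libraries, two-sided F tests of 7 contrasts and Benjamini-Hochberg adjustment over 17788 genes. The filter removed 0.0539% to 0.0881% of a library's counts. Libraries held 19.1 to 25.8 M counts, and no 2 replicates agreed within sampling noise (lowest chi-square per degree of freedom 5.14). The fit was tested on simulated data. CPM are scaled by the TMM library size. Alternatives were DESeq2 1.42.0, DESeq2 size factors in edgeR, no filter, removal of the length and GC trend (mgcv 1.9.3), a choroid plexus score as covariate, exclusion of the 6 libraries lowest in it, fits on the compared groups alone, and each library left out in turn.

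The members and lists were chosen with earlier results of these data known. Library values are given for each member called in any contrast and for Nfe2l2, Keap1, Hmox1, Nqo1, Slc7a11 and the metallothioneins. Of other pathway lists, up to 4 called genes of lowest p are named. Replicates are numbered in accession order. A gene of the other pathway lists is not reported here.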

Additional observations from a re-analysis of the deposited data

Results flagged for a closer look

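In 5 of 148 combinations of a gene and a group, the highest library stood apart from the others by Dixon's 95% criterion, and chance gives about 1 in 20. Gpx4 stood at 96.9 CPM in P301S hypoxia replicate 6, with the next library at 76.6 CPM. Cat stood at 61.7 CPM in WT normoxia replicate 3, with the next at 51.7 CPM. Txnrd1 stood at 94.2 CPM in P301S hypoxia replicate 2, with the next at 81.5 CPM. Txnrd2 stood at 7.55 CPM in WT normoxia replicate 5, with the next at 3.25 CPM. Mt2 stood at 3.78 CPM in WT hypoxia replicate 6, with the next at 2.89 CPM.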

How the results depend on the processing

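No gene called in a comparison changed sign in any alternative run. The median of the 37 genes for hypoxia in WT, -0.0137, turned positive with the length and GC trend removed (0.0101), with the choroid plexus covariate (0.0201) and without the 6 libraries lowest in that score (0.0159), and ran from -0.0302 to 0.0198 when 1 library was left out. For P301S against WT in normoxia, 3 of the 37 genes were called with the trend of length and GC content removed and 3 in the fit of those 2 groups alone. In hypoxia 0 were called without the 6 libraries lowest in choroid plexus score, 1 in the fit of the 2 groups alone and 5 by DESeq2. DESeq2 also called 1 for hypoxia in P301S. For the averaged genotype difference 8 were called after removal of the trend. Leaving out 1 library gave 2 to 12 calls among the 37 in normoxia, 0 to 5 in hypoxia and 9 to 14 in the average. It gave 0 to 0 for hypoxia and the interaction. The share of all genes called in those fits is not given. Gstp1 has no DESeq2 value in the average, since DESeq2 gave no adjusted p. Over all genes, the 1054 calls in normoxia became 629 with no filter, 382 with the trend removed, 367 without the 6 libraries, 367 in the 2 groups alone and 1637 by DESeq2, and the 343 in hypoxia became 182, 151, 8, 152 and 821. For hypoxia in WT 14 became 6, 23, 0, 4 and 153, and 25 with the choroid plexus covariate. For hypoxia in P301S 54 became 36 with no filter, 211 with the trend removed, 33 without the 6 libraries and 332 by DESeq2, and for averaged hypoxia 232 became 124, 493, 55 and 652, and 137 with the covariate. The 2280 calls of averaged genotype became 1026 with the trend removed and 1271 without the 6 libraries. No paired analysis was possible because the labels give no replicate numbers shared between groups. Averaged standard errors were largest for Txnrd2 (0.245) and Gstp1 (0.183), both under 5 CPM, but Gpx3 (0.160) and Sod3 (0.151) stand above that level.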

Other observations

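Among the other redox genes, Xdh and Tfrc were called higher for hypoxia averaged over genotypes. Xdh, xanthine dehydrogenase, a source of superoxide and urate, ran from 3.06 through a median of 4.77 to 5.70 CPM in WT normoxia and from 6.05 through 8.23 to 11.4 CPM in WT hypoxia. In P301S it ran from 3.35 through 4.83 to 6.16 CPM in normoxia and from 8.26 through 10.5 to 15.8 CPM in hypoxia, so the conditions did not overlap in either genotype. Xdh rose by 1.06 averaged (SE 0.142, edgeR adjusted p = 0.000556) and by 1.21 in P301S (SE 0.207, adjusted p = 0.0125), and the difference in WT was 0.92 (SE 0.196, adjusted p = 0.0679). The interaction was 0.29 (SE 0.282, adjusted p = 0.804).

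Tfrc, the transferrin receptor that imports iron, rose by 0.25 averaged (SE 0.0468, edgeR adjusted p = 0.00865), with medians of 86.8 CPM in WT normoxia and 102 CPM in WT hypoxia, and 95.1 and 113 CPM in P301S. Among the genes called lower were Msrb3, a methionine sulfoxide reductase (-0.22, SE 0.0507), and Sesn3, a sestrin (-0.14, SE 0.0349).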
